A study of Mus musculus with 2 samples.

Results

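Metallothioneins and enzymes that remove reactive oxygen were followed across the epithelial cells of the adult mouse mammary gland. The 10 genes were taken by name: the metallothioneins Mt1 and Mt2, the glutathione peroxidases Gpx1, Gpx3 and Gpx4, the superoxide dismutases Sod1 and Sod2, the peroxiredoxin Prdx1, the thioredoxin Txn1 and the glutathione transferase Gstm1. They are 10 of the 27998 genes counted, and all 10 had enough counts to be compared. The cells came from untreated adult female FVB/NJ mice, an inbred laboratory strain, and 8 mice were used in all. One pool was sorted for basal cells (Lin–CD29hiCD24+) and the other for total epithelium (Lin–CD24+), where Lin– cells lack the blood cell proteins Ter119 and CD45 and the endothelial protein CD31. Each pool gave 1 droplet (10X Chromium) library of 3′ tags, in which each RNA molecule is counted once. With 1 library per condition and several mice per pool, no difference below has a replicate check and no test was run. The estrous stage of the mice was not given in the sources used here.

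Metallothioneins are small cysteine-rich proteins that bind zinc and copper and can take up radicals. Their genes are switched on by the zinc sensor MTF1, which binds metal response elements (MREs), and also by glucocorticoids and stress. Superoxide dismutases turn superoxide into hydrogen peroxide, which glutathione peroxidases and peroxiredoxins then reduce to water. Glutathione and thioredoxin supply the electrons, and glutathione transferases couple glutathione to reactive compounds. In the mammary gland, contractile basal (myoepithelial) cells surround a luminal layer of luminal progenitor (LP) cells and hormone-sensing mature luminal (ML) cells.

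Mt1 and Mt2 lie side by side on chromosome 8 of GRCm38, both on the plus strand. Mt2 spans 94172664 to 94173568 and Mt1 spans 94179082 to 94180327, with 5513 bases between them. Their promoters are shown because the levels of both genes followed the same order of cell classes, given next. The windows run from 250 bases before the RefSeq start to 30 bases after it (GRCm38.p6, plus strand, 5′ to 3′), and capitals mark the core letters of the MRE, TGCACNC or TGCGCNC on either strand.
Mt1, chr8:94178839-94179118: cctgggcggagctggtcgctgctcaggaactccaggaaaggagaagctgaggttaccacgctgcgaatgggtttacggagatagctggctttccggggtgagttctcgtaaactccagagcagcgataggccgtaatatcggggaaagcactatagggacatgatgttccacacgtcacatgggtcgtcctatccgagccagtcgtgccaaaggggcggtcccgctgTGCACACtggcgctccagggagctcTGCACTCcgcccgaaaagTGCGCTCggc
Mt2, chr8:94172368-94172647: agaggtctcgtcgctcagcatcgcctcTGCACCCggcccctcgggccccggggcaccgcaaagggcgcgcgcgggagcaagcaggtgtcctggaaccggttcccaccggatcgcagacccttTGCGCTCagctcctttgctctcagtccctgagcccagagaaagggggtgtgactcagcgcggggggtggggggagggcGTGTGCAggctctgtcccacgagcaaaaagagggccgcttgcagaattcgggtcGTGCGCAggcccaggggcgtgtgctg
The Mt1 window held 3 separate core matches and the Mt2 window held 4. Among 32851 RefSeq promoter windows of the same length, 24.1% held at least 1 match, 1.13% at least 3 and 0.225% at least 4. All 10 genes had a window, 14 in all, and Gstm1 was the other gene with a match, 1 site shared by its overlapping windows. The core of the antioxidant response element, TGACNNNGC on either strand, was found in Mt2, Sod1 and Prdx1 and in 11.5% of all windows. A match describes the letters and does not show that a factor binds there.

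Cells of the total epithelium library were assigned to classes by their counts of marker genes. Cells with 10 or more counts of Krt5, Krt14 and Acta2 were called basal (1279 cells), those with 5 or more of Prlr and Stc2 were called ML (1120 cells), and other cells with 3 or more of Krt8, Krt18 and Krt19 were called LP (769 cells). The median cell held 1819 counts in the basal, 2461 in the LP and 3419.5 in the ML class. Near the borders, 131 ML cells had 5 to 7 counts of Prlr and Stc2 and 76 LP cells had 3 or 4. A further 27 cells met both the basal and the ML rule and were set aside, and 107 cells met no rule. The lists of basal, LP and ML markers each stood highest in the class of that name. The basal list includes Krt5, Krt14 and Acta2 and the ML list Prlr and Stc2, so their order was partly fixed by the class rule. Each other gene of both lists also stood highest, among the 3 classes, in the class of that name. Summed over the list, 8 LP markers that include Elf5, Kit, Csn3 and Lcn2 stood at 18561 CPM in LP cells, where CPM are counts scaled to a total of 1000000. They stood at 2244 CPM in basal cells, of which Lcn2 made 1809, and at 1862 CPM in ML cells. The 6 fibroblast markers summed to 358, 188 and 1160 CPM in the basal, LP and ML classes, with Dcn at 1153 CPM in ML cells. The 6 blood markers summed to 44.6, 6.03 and 22.4 CPM in the same order, with Ptprc and Cd52 at 0 and Cd74 leading in basal cells (41.2 CPM). The sorted basal library was much shallower, with a median of 487 counts over 4771 cells, and 1757 of its cells reached the basal rule.

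The metallothioneins were highest in basal cells, lower in LP cells and lowest in ML cells, whereas Gpx3 was highest in ML cells. Mt1 was 3.12-fold and Mt2 3.74-fold higher in basal than in ML cells, and Gpx3 was 166-fold higher in ML than in basal cells (log2 ratio 7.37, or 4.55 with the 27 cells that met both rules counted as basal and 6.20 with the class cutoffs doubled). The difference between basal and LP cells for Gpx3 depended on the LP cells included, as given below. Gstm1 followed the metallothioneins and was 3.40-fold higher in basal than in ML cells. The intracellular peroxidases Gpx1 and Gpx4 were highest in LP cells, and Sod2 and Prdx1 differed by less than 1.5-fold among the classes. A ratio was called when it passed 2-fold. By that rule, 3 of the 10 genes were called between basal and LP cells, against 29.5% of the 7142 genes tested. Between ML and LP cells 3 were called, against 25.4% of all genes, and between ML and basal cells 4 were called, against 34.3%. By direction, the last 4 were Gpx3, higher in ML cells as were 18.4% of all genes, and Mt1, Mt2 and Gstm1, lower as were 15.9%. The number of calls was thus close to that of genes at large. Ranges in brackets below are 95% intervals that cover counting error alone, and levels are CPM of 3′ tags not scaled by gene length.

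**Figure D1:**
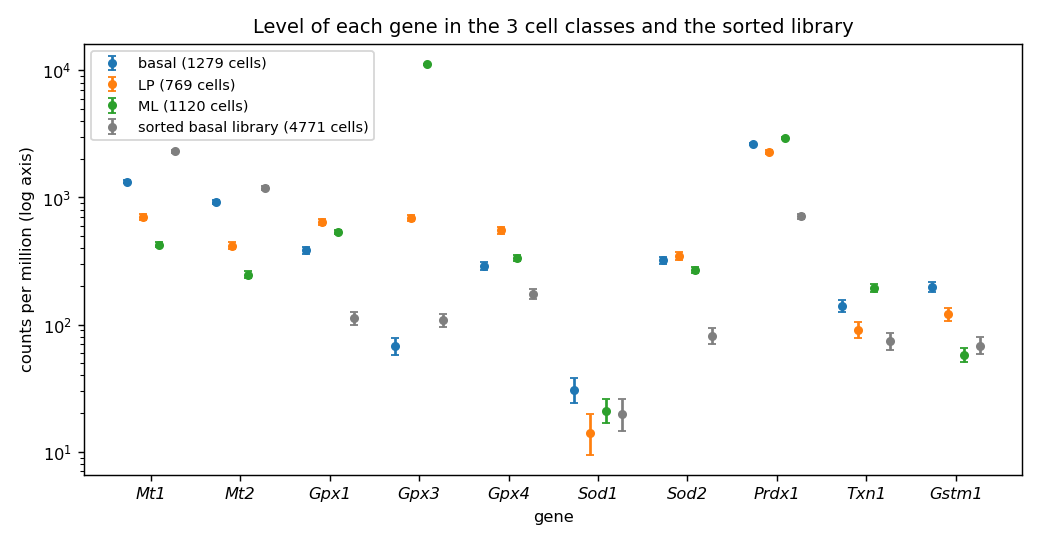
Level of each of the 10 genes (horizontal axis) in CPM on a log axis, in basal, LP and ML cells of the total epithelium library and in the whole sorted basal library. Points are levels of summed counts and bars are exact Poisson 95% intervals. Gpx3 spans 67.6 to 11201.5 CPM among the 3 classes, while Prdx1 spans 2280 to 2934.

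Mt1 stood at 1333 CPM [1289, 1378] in basal cells, 700.0 CPM [665, 736] in LP cells and 427 CPM [407, 447] in ML cells. Mt2 stood at 923 CPM [887, 960] in basal, 418 CPM [391, 446] in LP and 247 CPM [232, 262] in ML cells. The 3 intervals did not overlap for either gene. The log2 ratio of ML over basal cells was -1.64 [-1.73, -1.56] for Mt1 and -1.90 [-2.01, -1.80] for Mt2, and both passed 2-fold under the 9 alternative settings that bear on this ratio. The basal over LP ratio was 1.14 [1.03, 1.26] on the log2 scale for Mt2, past 2-fold, and 0.93 [0.84, 1.02] for Mt1, just short of it. ML cells were lower than LP cells by less than 2-fold, at log2 ratios of -0.71 for Mt1 and -0.76 for Mt2.

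The basal excess was also seen in the share of cells with a count. After each cell was thinned to 1000 counts, a count of Mt1 was found in 68.7% [66.0, 71.3] of the 1227 basal cells kept, in 42.7% [39.1, 46.4] of the 726 LP cells and in 30.1% [27.4, 32.9] of the 1101 ML cells. The shares for Mt2 were 58.4%, 28.5% and 19.7% in the same order. Without thinning, they were 81.9%, 62.3% and 55.4% for Mt1 and 75.4%, 49.4% and 40.7% for Mt2. The order of classes was therefore the same with and without equal depth. It was also the same in shallow and deep cells: Mt1 stood at 1425, 666 and 409 CPM in the shallower cells of the basal, LP and ML classes, and at 1287, 714 and 435 CPM in the deeper cells.

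Mt1 gave more tags than Mt2 in each class. Its share of the summed tags was 59.1% [57.8, 60.3] in basal, 62.6% [60.7, 64.6] for LP and 63.4% [61.5, 65.2] for ML cells. The share of basal cells lay below both luminal shares, by a few percentage points. The sorted basal library did not share this low value and stood above both luminal shares, at 66.0% [65.0, 67.0]. Counts of both genes varied together from cell to cell within a class, with Pearson's r of the log2 thinned count of 0.25 (basal), 0.27 (LP) and 0.28 (ML) at 1000 counts, and of 0.13, 0.22 and 0.14 at 500 counts. Across the cells at 1000 counts, the other 44 pairs of the 10 genes had r between -0.11 and 0.14. Cells of 1 library share their source, so these r are descriptions.

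Stress-related lists were read beside the metallothioneins. Immediate-early genes such as Fos and Junb, which cell dissociation can raise, summed to 38361 CPM in basal cells, 29608 in LP cells and 26230 in ML cells. Of the 14 genes, 4 (Junb, Egr1, Dusp1 and Nr4a1) had the basal, LP, ML order of Mt1 and Mt2, 2 had the reverse order and 8 another order, Fos among them. Within classes, r of Mt1 with the immediate-early and glucocorticoid-responsive genes compared lay between -0.077 and 0.032. Glucocorticoid-responsive genes such as Tsc22d3 and Klf9 summed to 2630, 4404 and 2417 CPM, highest in LP cells. Nfkbia made 2832 CPM of the LP sum, with 990 CPM in basal and 1314 CPM in ML cells. Sgk1 was highest in basal cells, at 1139, 661 and 750 CPM. Of the 7 genes, 5 were lower in basal than in LP cells by more than 2-fold, beside 12.6% of all genes, and 0 higher. The part of either list in the metallothionein levels was not tested.

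**Figure D2:**
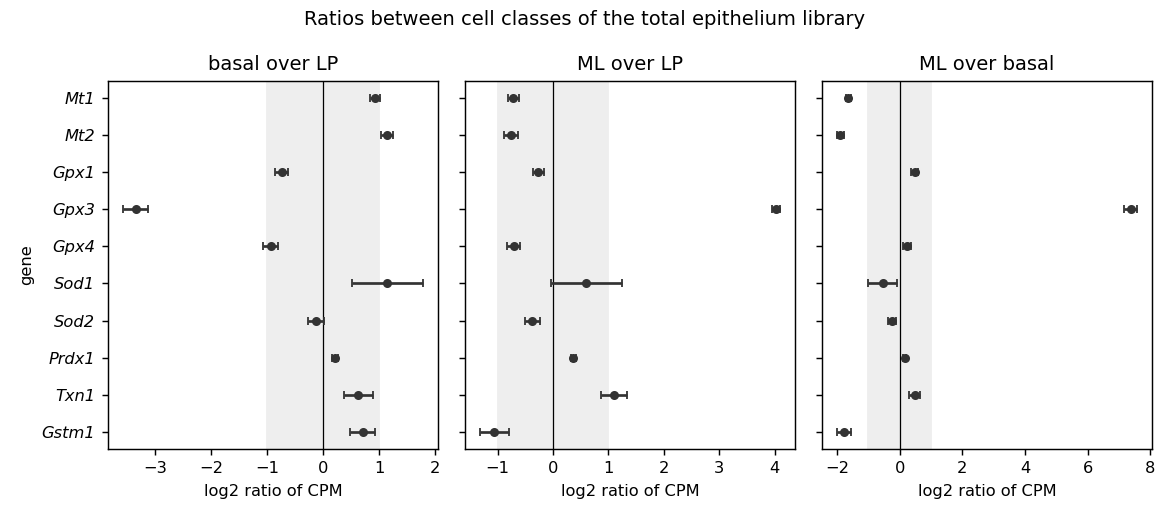
Log2 ratio of CPM between cell classes for each gene, one panel per pair of classes; bars are exact 95% intervals and the grey band marks ratios within 2-fold. Mt1 and Mt2 lie left of the band in ML over basal cells (-1.64 and -1.90), and Gpx3 lies far right (7.37).

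Gpx3, the secreted glutathione peroxidase, was the widest-ranging of the 10 genes. Its level was 67.6 CPM [58.1, 78.3] in basal, 687 CPM [653, 723] in LP and 11201.5 CPM [11100, 11304] in ML cells. The log2 ratio was 4.03 [3.95, 4.10] for ML over LP and 7.37 [7.16, 7.59] for ML over basal cells. The ML over LP ratio depended on the class rule far beyond its interval. It was 2.53 with the class cutoffs doubled and 7.57 with LP cells without a Prlr or Stc2 count. By tag counts Gpx3 had rank 4 among the 13539 genes detected in ML cells. The median ML cell held 22 Gpx3 counts, the 90th percentile was 104.1 and the highest cell held 327.

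The LP level of Gpx3 was carried by cells close to the ML border. The 517 LP cells without a count of Prlr or Stc2 stood at 59.0 CPM [47.0, 73.0], or 0.527% of the ML level, near the 0.604% of basal cells. The 176 cells with 1 or 2 such counts stood at 616 CPM, and the 76 cells with 3 or 4 at 6043 CPM, or 53.9% of the ML level. The class rule used unscaled counts, and the median cell of these groups held 2463, 2842.5 and 1812 counts in turn. Gpx3 stood at 1285 CPM in the shallower and 439 CPM in the deeper LP cells. The part of depth in placing cells near the border was not tested. With the LP class limited to cells without a Prlr or Stc2 count, the log2 ratio of basal over LP cells moved from -3.35 to 0.20. With the 27 cells that met both rules counted as basal, it was -0.52. The ML marker Areg, an EGF receptor ligand, showed the same steps at 33.0, 234 and 1896 CPM. In basal cells, Areg stood at 0.788%, Ly6d at 0.989% and Cited1 at 0.374% of their ML levels, beside the 0.604% of Gpx3. Droplets also hold free RNA, whose part in these low levels was not tested. Mt1 went the other way, at 730, 718 and 401 CPM in the same LP cells.

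**Figure D3:**
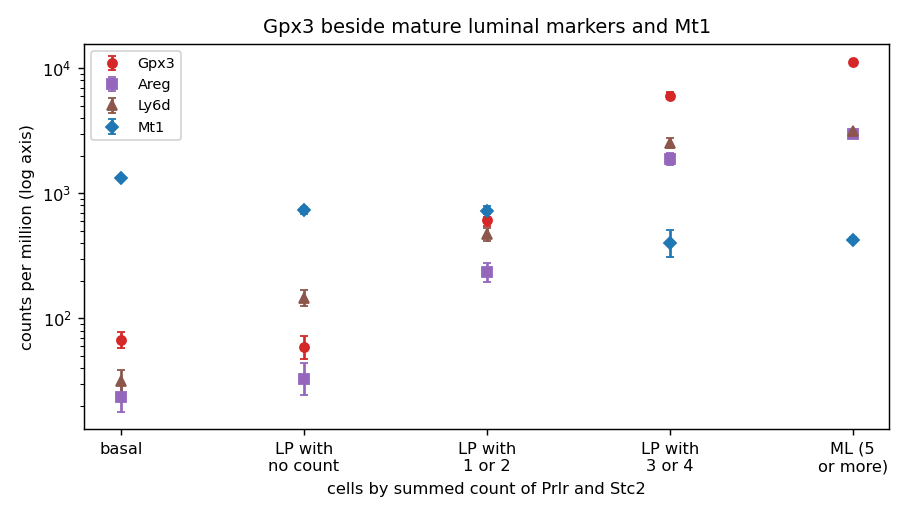
CPM (log axis) of Gpx3, the ML markers Areg and Ly6d, and Mt1 in basal cells, in LP cells divided by their summed count of Prlr and Stc2, and in ML cells; bars are exact Poisson 95% intervals. Gpx3 climbs from 59.0 CPM in LP cells without such a count to 6043 with 3 or 4, beside Areg (33.0 to 1896), while Mt1 is 730 and 401.

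Gpx3 also had the highest Fano factor in ML and LP cells, where that of Sod1 was not computed because of its few counts. The Fano factor, the variance over the mean, of counts thinned to 1000 per cell was 14.0 in ML and 13.2 in LP cells, and at 500 counts 7.86 and 8.20. In LP cells, 1% of the cells held 39.6% of its counts. The LP values mix cells at 59.0 CPM of Gpx3 with cells near the ML border at 6043 CPM, as given above. The Fano factor of Mt1 at 1000 counts was 1.38 in basal cells, 1.47 in LP cells and 1.48 in ML cells, where random sampling alone gives about 1. The factor grows with the level of a gene where cells differ. The mean thinned count of Gpx3 and Mt1 was 11.2 and 0.43 in ML cells, and 0.75 and 0.67 in LP cells. The factors of ML cells therefore do not rank the genes by relative spread. After thinning, 90.4% of ML cells had a Gpx3 count, compared with 15.4% of LP and 4.48% of basal cells. Without thinning, the shares were 97.4%, 25.1% and 10.2%. Among 2786 genes compared over 3054 cells with class means subtracted, those most like Gpx3 were Tmed3 (r of 0.40), a trafficking protein of the secretory pathway, and Glul (0.34), the glutamine synthetase. The Tmed3 value was 0.54 within LP, 0.41 within ML and 0.05 within basal cells. The ML marker Areg came next at 0.297, with 0.59 within LP, 0.25 within ML and 0.09 within basal cells. No gene reached an r of 0.3 with any of the other members, and Sod1 was too sparse to be compared.

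**Figure D4:**
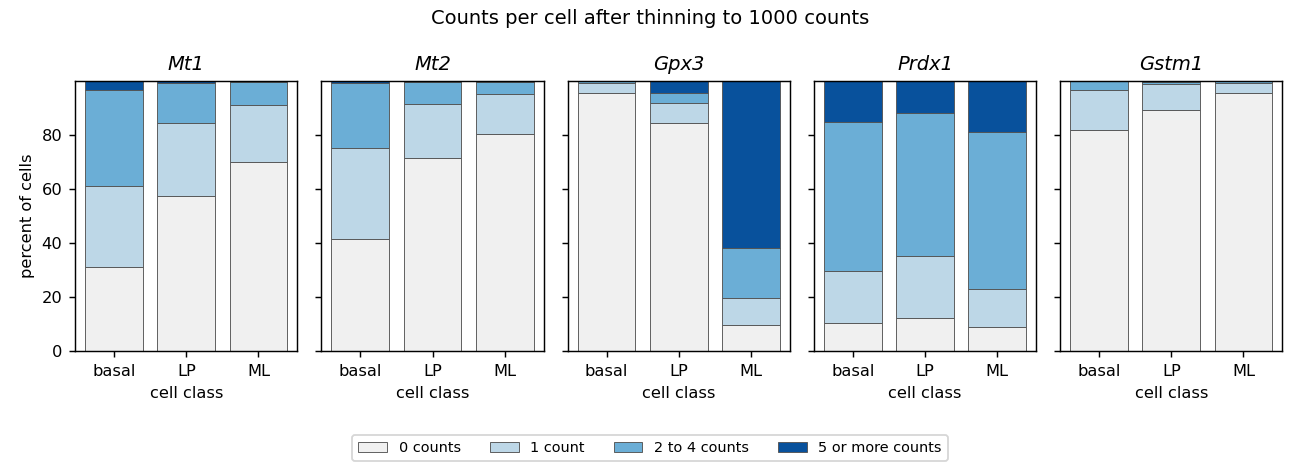
Percentage of cells with 0, 1, 2 to 4, or 5 or more counts of Mt1, Mt2, Gpx3, Prdx1 and Gstm1 after thinning to 1000 counts per cell, by class. Cells with a count fall from 68.7% (basal) to 30.1% (ML) for Mt1 and climb from 4.48% to 90.4% for Gpx3, while Prdx1 was counted in 87.7% to 91.2% of cells.

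The intracellular peroxidases had another order. Gpx1, the cytosolic enzyme, stood at 385 CPM [362, 409] in basal, 643 CPM [610, 678] in LP and 534 CPM [512, 557] in ML cells. Gpx4, which reduces lipid peroxides, stood at 288 CPM [268, 309], 551 CPM [521, 584] and 337 CPM [319, 355]. Both were thus highest in LP and lowest in basal cells, with basal over LP log2 ratios of -0.74 and -0.94, short of 2-fold. The Gpx4 ratio passed 2-fold under 3 of 10 alternatives, reaching -1.13 with TMM scaling. Gpx1 was counted in 30.2% (basal), 47.5% (LP) and 41.4% (ML) of the cells thinned to 1000 counts.

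Of the superoxide dismutases, mitochondrial Sod2 was at 320 CPM [299, 342] in basal, 350 CPM [325, 375] in LP and 270 CPM [254, 286] in ML cells. The basal and LP intervals overlapped. Sod1, the copper and zinc enzyme of the cytosol, gave few tags, with 81 counts in basal cells, 30 in LP cells and 86 in ML cells. Its levels were 30.6, 13.9 and 20.9 CPM, and the basal over LP log2 ratio of 1.14 [0.52, 1.79] passed 2-fold with an interval that reached well below it. It passed under 7 of 10 alternative settings.

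Prdx1, a peroxiredoxin that reduces peroxide with electrons from thioredoxin, was abundant and even. It stood at 2629 CPM [2568, 2692] in basal, 2280 CPM [2216, 2344] in LP and 2934 CPM [2882, 2987] in ML cells, and its Fano factor was between 1.25 and 1.35. Txn1, the cytosolic thioredoxin, was at 141 CPM [127, 156], 91.0 CPM [78.7, 105] and 195 CPM [182, 209]. The ML over LP ratio of Txn1, 1.10 [0.87, 1.33] on the log2 scale, passed 2-fold and did so under 5 of the 9 alternative settings that bear on it.

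Gstm1, a mu-class transferase, fell in steps from 197 CPM [180, 214] in basal to 121 CPM [106, 136] in LP and 57.9 CPM [50.7, 65.7] in ML cells. The log2 ratio was -1.77 [-1.99, -1.54] for ML over basal, past 2-fold under 9 of 9 alternatives, and -1.06 [-1.32, -0.80] for ML over LP cells, past 2-fold under 7 of 9. After thinning, the share of cells with a count was 18.0% for the basal, 10.7% for the LP and 4.54% for the ML class. Mu-class genes are close in sequence, and tags shared between copies would not be assigned by the counting.

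The genes around the 10 were read from 7 pathway lists of 98 other genes, of which 75 had 100 or more counts over the 3 classes. Between ML and basal cells, 22 of the 75 were higher and 17 lower in ML cells by more than 2-fold, where 18.4% of all genes were higher and 15.9% lower, a median log2 ratio of 0.31 beside 0.11 for all genes. Between ML and LP cells 10 were higher and 17 lower (medians 0.07 and 0.29), where 15.2% of all genes were higher and 10.2% lower. Between basal and LP cells 9 were higher and 14 lower (medians -0.15 and 0.17), where 16.9% of all genes were higher and 12.6% lower.

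Genes of glutathione synthesis and recycling were mostly higher in ML cells. Of 10 measured, 7 were higher and 2 lower than in basal cells, beside 18.4% and 15.9% of all genes. Against LP cells, 6 were higher and 3 lower, beside 15.2% and 10.2%. Gsr, which regenerates reduced glutathione, stood at 43.8 CPM in basal cells, 147 in LP cells and 470 in ML cells. Gclc and Gclm, the subunits of the rate-limiting enzyme of glutathione synthesis, stood at 5.67, 13.9 and 40.4 CPM and at 194, 97.9 and 305 CPM in the same order. G6pdx, which supplies NADPH, stood at 4.91, 11.6 and 41.6 CPM. Slc3a2, the heavy chain of the cystine transporter, went against these genes, at 853, 1039 and 323 CPM. Idh1 and Me1, which also make NADPH, were highest in LP cells at 74.7 and 108 CPM.

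The other glutathione peroxidases and selenoproteins were lower in ML than in basal cells in 7 of 10 cases, beside 15.9% of all genes, and higher in none. Gpx7 and Gpx8, peroxidases of the endoplasmic reticulum, stood at 39.3 and 113 CPM in basal cells, each at 1.70 CPM in ML cells, and at 1.86 and 21.8 CPM in LP cells. They had 115 and 353 counts over the 3 classes, so both ML levels and the LP level of Gpx7 rest on few counts. Selm, a selenoprotein, stood at 189 CPM in basal cells, 8.82 in LP cells and 2.92 in ML cells. Sepp1, which carries selenium, was highest in LP cells at 477 CPM, compared with 309 in basal and 108 in ML cells. Sephs2, which makes the selenium donor, stood at 157, 68.2 and 44.5 CPM in basal, LP and ML cells. Gpx3 went the other way, past 2-fold higher in ML cells.

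Among 17 peroxiredoxins, thioredoxins and glutaredoxins, 5 were higher and 2 lower in ML than in basal cells, beside 18.4% and 15.9% of all genes. Prdx2 stood at 414, 448 and 920 CPM and Prdx6 at 366, 426 and 961 CPM in basal, LP and ML cells. Prdx4, the peroxiredoxin of the endoplasmic reticulum, had its highest level in LP cells at 320 CPM. Srxn1, which repairs overoxidised peroxiredoxins, and Txnip, which binds and inhibits thioredoxin, were also highest in LP cells, at 102 and 333 CPM, with 11.0 and 65.0 CPM in basal cells. Txndc12, a thioredoxin-like protein of the endoplasmic reticulum, stood at 24.9 CPM in basal cells, 121 in LP cells and 108 in ML cells.

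Of 13 other glutathione transferases, 4 were higher and 2 lower in ML than in basal cells, beside 18.4% and 15.9% of all genes. Gstt2 and Gstt3, theta-class enzymes, stood at 5.29 and 7.55 CPM in basal cells, 43.6 and 80.3 CPM in LP cells and 81.9 and 88.3 CPM in ML cells. Gstm5, like Gstm1 of the mu class, was highest in basal cells, at 187 CPM compared with 84.0 in LP and 50.8 in ML cells. Mgst1, a membrane-bound transferase, stood at 3418 CPM in LP cells, 853 in basal and 497 in ML cells.

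NRF2 is the transcription factor that binds antioxidant response elements. Of 14 of its regulators and other targets, 3 were higher and 3 lower in ML than in basal cells, near the 18.4% and 15.9% of all genes. None was higher and 1 lower in basal than in LP cells, beside 16.9% and 12.6% of all genes. In ML against LP cells 5 were lower and none higher, beside 10.2% and 15.2%. Nqo1, a quinone reductase, was the target past 2-fold between basal and LP cells, at 106 CPM in LP, 18.9 in basal and 11.4 in ML cells. Hmox1, the inducible heme oxygenase, stood at 118 CPM in both basal and LP cells and at 35.5 in ML cells. Mafk, a DNA-binding partner of NRF2, stood at 245, 156 and 58.8 CPM in basal, LP and ML cells. The ferritin chains Fth1 and Ftl1 were the most abundant genes of the lists, at 6240 and 6312 CPM in basal, 6857 and 5583 in LP and 4142 and 2697 in ML cells.

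Of 9 other genes of the metallothionein family and of zinc or copper handling, 2 were higher and 1 lower in ML than in basal cells, near the 18.4% and 15.9% of all genes. The zinc importer Slc39a14 had its highest level in LP cells, at 97.5 CPM, compared with 15.9 in basal and 19.7 in ML cells. Slc39a6, another zinc importer, stood at 32.1 CPM in basal cells, 9.75 in LP cells and 16.0 in ML cells. Neither importer shared the full basal, LP, ML order of Mt1 and Mt2.

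The sorted basal library was then set beside the basal cells of the total epithelium library. Mt1 stood at 2308 CPM [2249, 2369] in the sorted library and Mt2 at 1191 CPM [1148, 1234]. The log2 ratio of sorted over unsorted basal cells was 0.79 [0.73, 0.85] for Mt1 and 0.37 [0.29, 0.45] for Mt2, neither past 2-fold. Gpx1, Sod2, Prdx1 and Gstm1 were lower by more than 2-fold, at -1.77, -1.97, -1.89 and -1.53, and Prdx1 stood at 709 CPM. These 4 of 10 genes compare with 44.8% of all 6032 genes tested in either direction, 27.2% higher and 17.6% lower. The median over all genes was 0.40. Relative to that median, Mt2 did not stand higher in the sorted library. The pathway lists had 14 genes higher and 31 lower of 65, with a median of -0.67. Among them, 11 of 15 peroxiredoxins, thioredoxins and glutaredoxins and 7 of 8 glutathione transferases were lower. Of the genes of glutathione synthesis and recycling, 3 of 7 were higher and none lower, beside 27.2% and 17.6% of all genes. Of those of zinc or copper handling, 2 of 9 were higher, near the share of all genes, and none lower. The NRF2 list had 5 higher and 6 lower of 14, and the list of peroxidases and selenoproteins none higher and 6 lower of 10.

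These libraries differed in other ways that moved with the comparison. The share of ribosomal protein gene counts was 4.50% in the sorted library and 8.96% in unsorted basal cells. Of 88 ribosomal protein genes, 18 were higher and 20 lower by more than 2-fold, beside 27.2% and 17.6% of all genes. For basal over LP, ML over LP and ML over basal cells, 0%, 1.15% and 2.30% of 87 such genes passed 2-fold. The summed immediate-early genes stood at 48771 and 38361 CPM in the sorted library and unsorted basal cells. The part of these features in the differences was not tested, and the sort cannot be told apart from the library. At an equal 300 counts per cell, 45.4% [43.8, 46.9] of 3889 sorted and 30.6% [28.1, 33.3] of 1279 unsorted basal cells had a count of Mt1. Prdx1 was counted in 15.7% of sorted and 52.1% of unsorted basal cells at that depth. The Mt1 share of metallothionein tags was 66.0% [65.0, 67.0] in the sorted library, compared with 59.1% in unsorted basal cells.

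**Figure D5:**
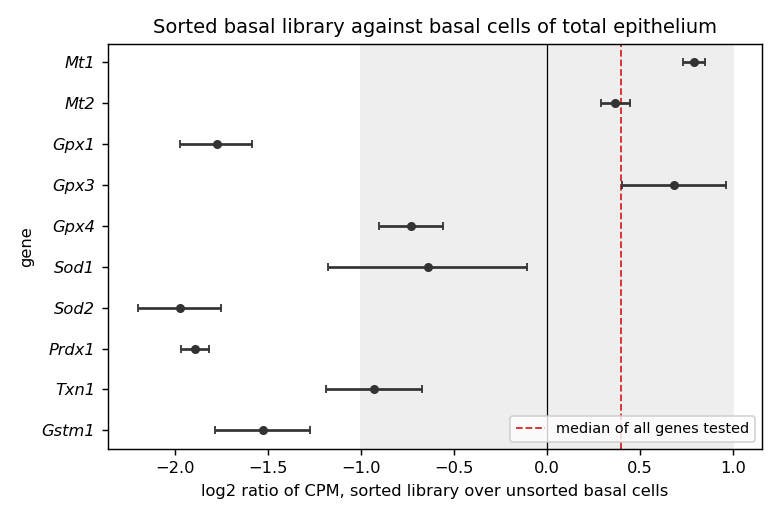
Log2 ratio of CPM in the sorted basal library over the basal cells of total epithelium, for each gene; bars are exact 95% intervals, the grey band marks ratios within 2-fold and the dashed line the median of all genes tested (0.40). Gpx1, Sod2, Prdx1 and Gstm1 lie left of the band, and Mt1 lies at 0.79.

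Gpx3 in the sorted library rested on few cells. It had 270 counts there, or 108 CPM, in 51 of 4771 cells. The 8 cells with 10 or more held 180 of them, and 5 of the 8 had 3 or more counts of the luminal keratins Krt8, Krt18 and Krt19, while 3 had a count of Col1a1, Col1a2 or Col3a1. In the cells of that library that met the basal rule, the log2 ratio over unsorted basal cells moved from 0.68 to -2.64.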

How the data were processed

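The authors deposited whole-number counts of unique molecules per gene and cell, unnormalised, 2488704 in the sorted basal library (137 to 1946 per cell) and 9227651 in the total epithelium library (802 to 12967 per cell). The submitters' processing notes name Cell Ranger 1.2.1 and mm10, whereas the study's methods name another version. Such counting leaves out reads shared by near-identical genes, which lowers genes with copies. The libraries shared 28 barcodes, and all cells were kept.

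Counts were summed per class and scaled to CPM. Levels have exact Poisson, ratios exact conditional binomial and shares Clopper-Pearson 95% intervals, which cover counting error alone. Ratios were called past 2-fold among genes with 100 or more counts over the groups compared. No doublet caller was run. Thinning used a fixed seed. Pearson's r used log2(1 + thinned count). The scripts were tested on simulated data. Tools were Python 3.11.15, numpy 2.4.6, scipy 1.17.1, pandas 2.3.3, matplotlib 3.10.9, R 4.3.3 and edgeR 4.0.16, used for its TMM scaling factors. Gene positions came from GENCODE for GRCm38 and promoters from RefSeq.

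The 10 genes and the lists were chosen with earlier results of these data known. Named were the 10 genes, the 25 pathway genes with the largest ratios among those past 2-fold in any class comparison, up to 6 of the most abundant, and genes with r of 0.3 or more with a member.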

Additional observations from a re-analysis of the deposited data

How the results depend on the processing

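The direction of Mt1, Mt2 and Gstm1 (ML below basal cells) and of Gpx3 (ML above) held with calls past 2-fold under the 9 alternatives that bear on that ratio, with log2 ratios of -1.74 to -1.61, -1.97 to -1.86, -2.05 to -1.46 and 4.55 to 7.68. The Gpx3 ratio of basal over LP cells moved from -3.35 to 0.20 with LP cells without a Prlr or Stc2 count. The intervals of these basal and LP levels, [58.1, 78.3] and [47.0, 73.0] CPM, overlapped. The Gpx3 ratio of ML over LP cells ranged from 2.53 to 7.57, past 2-fold under 9 of 9. Mt1 in basal over LP cells ranged from 0.73 to 1.08 (past 2-fold under 4 of 10) and Mt2 from 0.95 to 1.32 (9 of 10). With the class cutoffs doubled, 1 of the 10 genes was past 2-fold between ML and LP cells in place of 3, and 17 pathway genes of 75 in place of 27. With cells of 1500 to 3000 counts, a choice made after seeing the data, it was also 1, with 9 genes tested. Pathway genes past 2-fold between basal and LP cells were 23 of 75, 15 of 61 after thinning to 1000 counts and 35 of 91 with genes of 1 or more counts. TMM scaling moved the median of all genes from 0.17 to -0.03 for basal over LP, from 0.29 to 0.09 for ML over LP and from 0.40 to -0.04 for sorted over unsorted basal cells. It raised the genes past 2-fold in the last comparison from 4 to 7, and the Mt2 ratio there changed sign (-0.07). Thinning to 300 counts gave 27 pathway genes of 38 tested in place of 45 of 65 there. Where no cause is given by the setting itself, the cause was not tested. No paired analysis was possible because each group is 1 library, and for the same reason no replicate could be left out. Depth limits Sod1 most, with 30 counts in LP cells.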

Other observations

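The 107 cells of the total epithelium library that met no class rule included 43 with 3 or more counts of the collagens Col1a1, Col1a2 and Col3a1. In these 43 cells Gstm1 stood at 1552 CPM and Gpx3 at 3606 CPM, compared with 300.3 and 280 CPM in the other cells that met no rule. Mt1 stood at 1267 and 911 CPM in the same comparison and Sod2 at 126 and 373 CPM. The Gstm1 level of the collagen-positive cells rested on 136 counts and was above the 197 CPM of basal cells. These groups were formed after the values of other genes were seen and have no replicate.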
